A study of Mus musculus with 5 samples.

Results

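The baseline transcriptome of C2C12 myoblasts was described from the 3 samples that received an empty vector, out of 5 samples in the series. C2C12 is an established line of mouse myoblasts, the mononuclear precursor cells that leave the cell cycle and fuse into muscle fibres when serum is withdrawn. The cells were kept in medium with 20% fetal bovine serum, the growth condition, and were taken 5 hours after transfection with 1 µg of the empty plasmid pCMVmiR. All 3 samples therefore carry a transfected vector, and untransfected cells are not analysed here. No sample with reduced miR-16 was used. Total RNA (1.3 µg per library) was sequenced, and the labels do not say whether the 3 samples came from separate cultures, so their spread may be technical. With 1 group there is nothing to test, and every value below is a level or a spread.

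In a proliferating myoblast, Myod1 and Myf5, transcription factors of the basic helix-loop-helix family, mark the muscle lineage, and Pax7 marks the satellite cell from which myoblasts arise. The Id proteins bind the partner E proteins of Myod1 and hold it inactive while serum is present. Genes of the contractile apparatus, such as skeletal actin, fast troponins, titin and muscle creatine kinase, are switched on as cells differentiate into myotubes.

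The table gives, for 12615 genes, a normalized count: the reads of a gene scaled by the sample's size factor. Estimated depth in the listed genes was 15.45, 20.08 and 15.39 M reads in empty vector samples 1, 2 and 3. The 3 samples ranked genes alike, with Spearman correlations across genes of 0.9906 to 0.9923, although genes are not independent replicates. No pair looked like 1 library deposited again: the chi-square of a gene between 2 samples had a median of 2.02 to 2.77, where sampling alone would give 0.455. The column names of the table hold a code read here as a flow cell, though the names do not say what it is. Samples 1 and 3 share a code, called flow cell A, and sample 2 has another, called flow cell B. The last field of the names differs in the same way. For comparison between genes, each value was divided by transcript length, which was known for 12499 genes. In these the median level was 183 normalized counts per kilobase (kb). A level of at least 1000 per kb was called high, which 10.9% of genes reached, and a level under 10 per kb was called low, which held for 10.4%. Counts of high and low members of the gene lists below are to be read against these shares.

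Signal was spread over many genes. The 10 highest genes held 6.53%, 5.6% and 7.83% of the signal in samples 1, 2 and 3, and the 1000 highest held 51.73%, 51.16% and 52.03%. Before length division, 184 genes had a mean of at least 10000 normalized counts and together held 25.31% of the signal, while 611 genes had a mean under 10 and held 0.02%. Protein coding genes made up 96.5% ± 1.21 of the signal (SD, n = 3). The highest mean normalized count belonged to Rn18s, the ribosomal RNA of the small subunit, at 240989, 76098 and 484918 in samples 1, 2 and 3. Its rank thus rests on an RNA whose level differed several-fold between the samples. Without Rn18s and the ribosomal RNA precursor Rn45s, the 10 highest genes held 5.45%, 5.25% and 5.54%.

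Per kb of median transcript length, the myoblast transcriptome was led by Vim and Eef1a1. Vim, the intermediate filament protein of mesenchymal cells, stood at 84332, 81512 and 82957 normalized counts per kb in samples 1, 2 and 3. Eef1a1, the elongation factor that brings aminoacyl-tRNA to the ribosome, stood at 80070.2, 81371 and 82222 per kb. The ranges of these 2 genes overlap, so their order is not separated by the spread. Actb, cytoplasmic beta actin, followed at 67127, 72978 and 65474 per kb, below both in all 3 samples. That order rests on the length used. By the longest transcript Eef1a1 was at 81221, Actb at 56427 and Vim at 56262 per kb. By the union of exons Eef1a1 was at 58448, Actb at 40440.5 and Vim at 34709 per kb. The ferritin light chain gene Ftl1 (50902 ± 3494 per kb, SD, n = 3) and Lgals1, which encodes galectin 1 (48229 ± 2332 per kb), overlapped each other. Cytoplasmic gamma actin, Actg1, was at 42745 ± 1309 per kb. The ferritin heavy chain gene Fth1 (36636 ± 992 per kb) and Pkm, the pyruvate kinase of glycolysis (36491 ± 2534 per kb), could not be ordered. With the longest transcript Fth1 was at 16506 and Pkm at 33558 per kb. Ptma, which encodes the acidic nuclear protein prothymosin alpha, and the constitutive chaperone gene Hsp90ab1 completed the first 10, at 34252 ± 2089 and 30746 ± 1093 per kb.

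**Figure D1:**
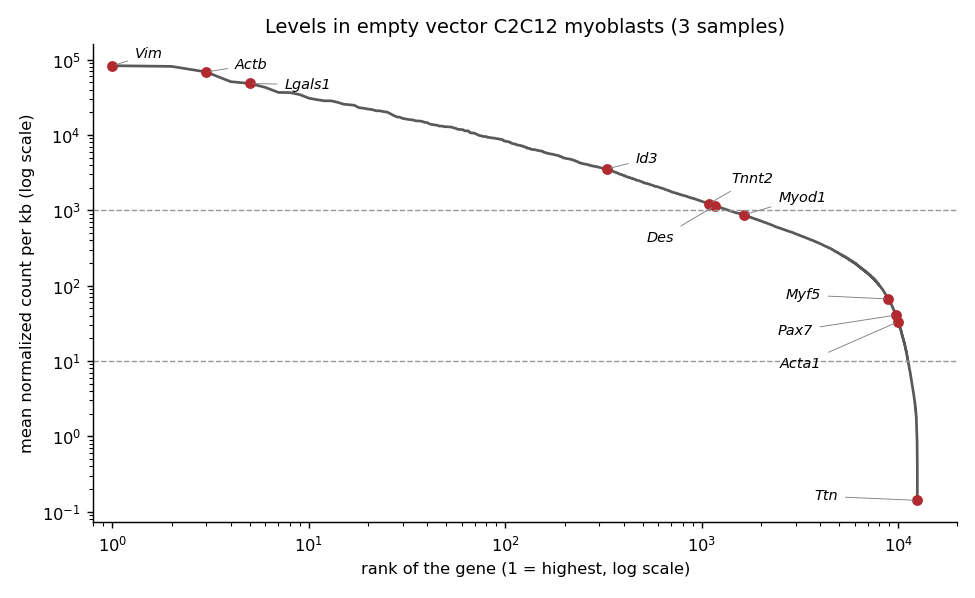
Mean normalized count per kb of each gene with a transcript length (y axis, log scale) against its rank (x axis, log scale), over the 3 empty vector samples. Red points mark named genes, and the dashed lines mark 1000 and 10 per kb: Vim, Actb and Lgals1 lie at the top, Id3, Tnnt2 and Des above 1000, Myod1 just under it, Myf5, Pax7 and Acta1 between 10 and 100, and Ttn at the lowest rank.

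Ranks 11 to 20 held further actin regulators, secreted proteins and a chromatin protein. Pfn1 and Cfl1, which encode profilin and cofilin, proteins that load and sever actin, were at 29348 ± 2787 and 25609 ± 2655 per kb (SD, n = 3). Rplp0, a protein of the ribosomal stalk, was at 28346 ± 1995 per kb, and Ppia, the prolyl isomerase cyclophilin A, at 27087 ± 1774 per kb. With the longest transcript Pfn1, Cfl1 and Ppia were at 10794, 12489 and 12437 per kb, while Rplp0 stayed at 28346 per kb. Spp1, the secreted matrix protein osteopontin, was at 23855, 22605 and 29193 per kb, and S100a4, a calcium-binding protein of motile mesenchymal cells, at 21505, 28737 and 24101 per kb. Spp1 was highest in sample 3 and S100a4 in sample 2. Prl2c2, which encodes the placental-type hormone proliferin, reached 22611 ± 1381 per kb, and the chromatin protein gene Hmga1b reached 22042 ± 1989.8 per kb. By normalized count without length division, the long transcripts Flna (58221 ± 1954) and Plec (47742 ± 5886), which encode the actin cross-linker filamin A and the cytolinker plectin, were among the first 10, as was the elongation factor gene Eef2 (64528 ± 1438).

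The other 2 of the first 20 genes per kb were processed pseudogenes, Rps6-ps4 at 28363 ± 907 and Gm15772 at 22967 ± 605 per kb. Processed pseudogenes are copies of a messenger RNA inserted elsewhere in the genome. Rps6-ps4, on chromosome 2, had 20819.6, 22054 and 20943 normalized counts in samples 1, 2 and 3. Its closest coding gene, Rps6 on chromosome 4, which encodes a small-subunit ribosomal protein, averaged 642. The copy was therefore 33.1, 36.6 and 30.1 times as high as the coding gene. Gm15772, on chromosome 5, was 122, 179 and 155 times as high as Rpl26, on chromosome 11. Sequences of 60 bases are shown for these copies and for 2 copies of other coding genes to show how little of the transcript could tell a read of the copy from a read of the coding gene. The letters are from the GENCODE M21 transcripts, each window lies in the coding sequence of the gene named after the copy, and a capital marks a base that differs within the pair.

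Rps6-ps4: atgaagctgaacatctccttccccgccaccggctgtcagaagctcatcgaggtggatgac
Rps6: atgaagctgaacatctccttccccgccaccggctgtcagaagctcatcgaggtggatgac
Gm15772: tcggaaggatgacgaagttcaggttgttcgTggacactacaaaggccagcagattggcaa
Rpl26: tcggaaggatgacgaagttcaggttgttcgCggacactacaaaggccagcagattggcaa
Gm12070: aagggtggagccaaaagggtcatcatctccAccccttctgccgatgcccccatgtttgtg
Gapdh: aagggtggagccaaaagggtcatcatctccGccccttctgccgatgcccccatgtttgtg
Oaz1-ps: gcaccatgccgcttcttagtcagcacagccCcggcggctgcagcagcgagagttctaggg
Oaz1: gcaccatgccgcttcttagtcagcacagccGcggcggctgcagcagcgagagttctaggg

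The Rps6-ps4 transcript matched Rps6 over all of its 750 bases with 100% identity, and the window shown for this pair, bases 1 to 60 of the coding sequence, holds no capital. Gm15772 matched Rpl26 at 99.5% over 438 bases, with 2 differing bases in the whole coding sequence. Gm12070, a copy of the glycolytic gene Gapdh, matched at 99.9% over 1002 bases and averaged 14676 normalized counts, against 9582 for Gapdh. Oaz1-ps, a copy of the ornithine decarboxylase antizyme gene Oaz1, averaged 6372, against 1478 for Oaz1. These last 2 copies were chosen after their values were seen. Among the 100 highest genes per kb there were 12 pseudogenes, with 98.9% to 100% identity to their closest coding gene and 1.48 to 149 times its mean, and 8 of the 12 were closest to a ribosomal protein gene. The table lists 125 pseudogenes, of which 45 matched a coding gene at 98% or more over at least 80% of their length. The coding gene was also listed for 44 of these, and it was exceeded by its copy in 26. How the authors assigned reads that fit several places is not given in the sources used here, so the level of either member of such a pair is uncertain.

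Near-identical coding genes carried the same uncertainty. Eno1b, on chromosome 18, and Eno1, the glycolytic enolase gene on chromosome 4, shared 99.5% identity over 1652 bases. Eno1b had 38239, 39820.5 and 37019.8 normalized counts, and Eno1 had 19283, 17525 and 19295. Their sum was steady at 57522, 57345 and 56315. Hmga1b was 7.98, 7.68 and 8.64 times as high as Hmga1, with 99.8% identity over 1602 bases.

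Genes of protein synthesis and folding stood high as groups. Of 84 genes with a symbol of a cytosolic ribosomal protein, 72 were high, against 10.9% of all genes. These 84 include the processed pseudogene Rpl32l, at 229.9 per kb. The group had a median of 3706 per kb against 183 over all genes. Their highest members were Rplp0, Rpl8 (20901 ± 1644 per kb, SD, n = 3) and Rpl4 (17353 ± 835 per kb). They held 2.43%, 2.84% and 2.48% of the signal in samples 1, 2 and 3, and 2.87%, 3.33% and 2.93% with their near-identical pseudogenes added. Of the 12 members under 1000 per kb, Rpl32l among them, 4 had such a copy, including Rps6 and Rpl26. Rpl37 was not counted, because its copy Rpl37rt matched at 99.7% over only 50.4% of the copy's length. Rpl37rt averaged 4319 normalized counts, against 147 for Rpl37. Among 36 listed translation factors 32 were high, with a median of 3032 per kb. Beside Eef1a1 they were led by Eef2, which moves the ribosome along the messenger RNA (20889.6 ± 466 per kb), and Eif5a (18114 ± 1225 per kb). Chaperones of the cytosol and endoplasmic reticulum were high in 25 of 34 listed members, with a median of 3682 per kb. Hspa8, the constitutive cytosolic chaperone gene, was at 17185 ± 882 per kb, and Calr, which encodes calreticulin, at 15271 ± 541 per kb. The heat-inducible Hspa1a was the lowest of this list, at 48.4, 25.8 and 43.7 per kb. Its sister gene Hspa1b was at 913 per kb, and how reads were divided between them was not tested.

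The cytoskeleton of a non-muscle cell was the other abundant group. Of 37 listed genes for cytoplasmic actin, tropomyosin and non-muscle myosin, 27 were high, with a median of 4041 per kb. After the actins, Pfn1 and Cfl1 came Lmna, the nuclear lamina gene (16567 ± 1444 per kb, SD, n = 3), and Tmsb10, an actin-sequestering peptide (16062 ± 1516 per kb). Cnn1 and Mylk, which encode calponin and smooth muscle myosin light chain kinase, were the lowest of that list, at 11.5 ± 3.05 and 1.01 ± 0.486 per kb. Other smooth muscle genes of the list lay higher, with Acta2 at 4694, Tagln at 425, Myl9 at 297 and Actg2 at 265 per kb. Annexins, S100 proteins and galectins were high in 19 of 27 listed members. Anxa2, a membrane-binding annexin, was at 16287 ± 642 per kb, and its partner S100a10 at 15009.9 ± 602 per kb. Among 45 listed collagens and matrix proteins 19 were high and 2 low, with a median of 865 per kb. Sparc, a collagen-binding matrix protein, led at 12774 ± 275 per kb, followed by P4hb, the disulfide isomerase subunit of prolyl hydroxylase (10275 ± 319 per kb), and Bgn, the proteoglycan biglycan (8921 ± 387 per kb). By symbol, 24 collagen chain genes were listed, and their median was 41.5 per kb, with 2 high and 9 low members. The highest 2 chains were Col5a2 (1309.7 ± 130.3 per kb) and Col3a1 (1194 ± 153 per kb).

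**Figure D2:**
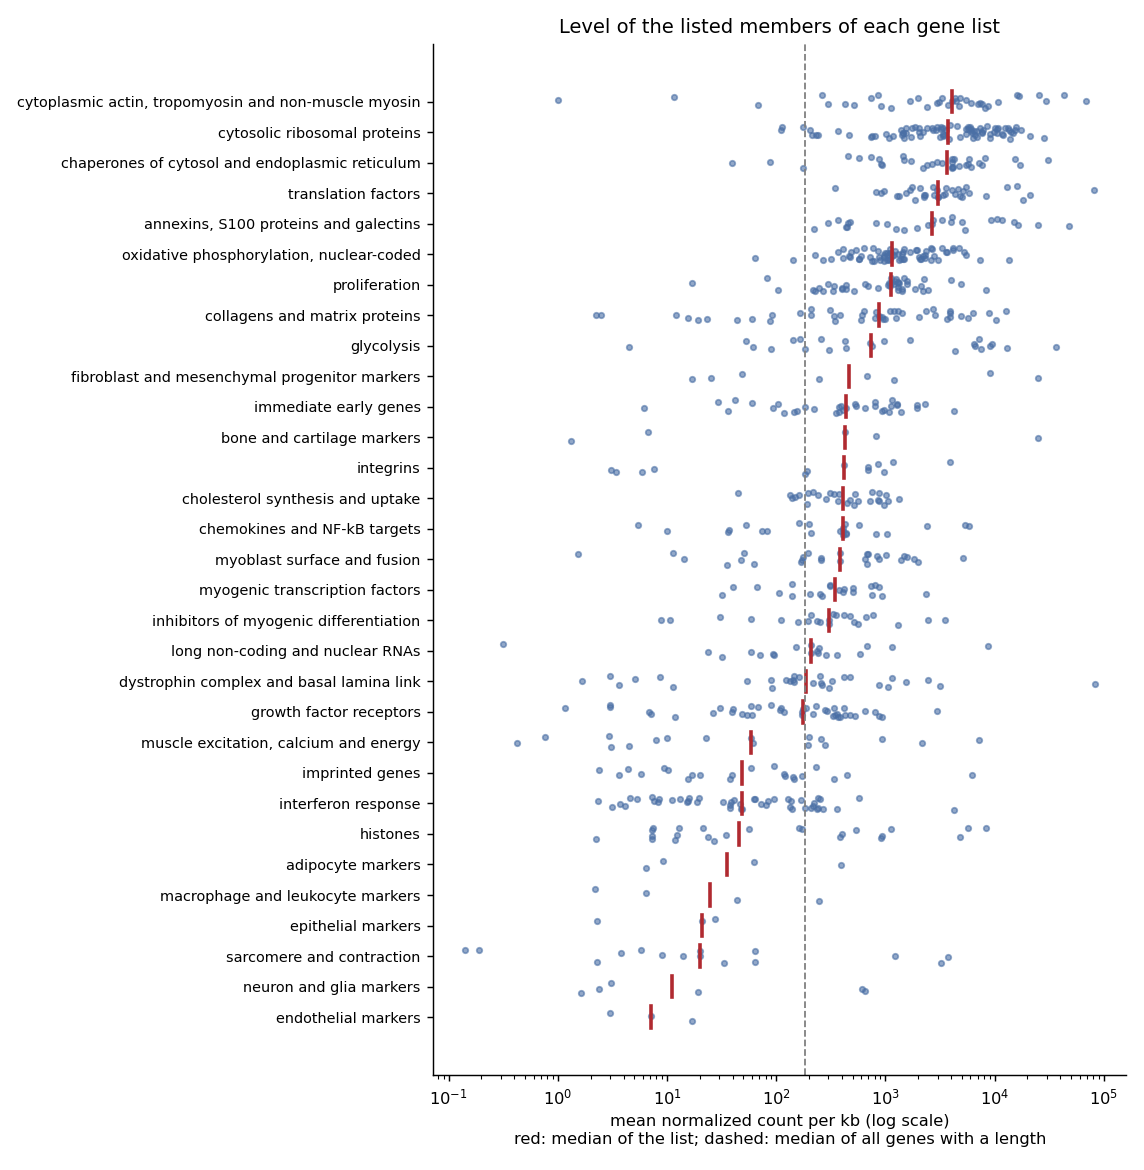
Each point is a listed gene, placed at its mean normalized count per kb over the 3 empty vector samples (x axis, log scale), in rows by gene list. Red bars are list medians and the dashed line is the median of all genes with a length, 183 per kb: by median, actin, ribosomal protein and chaperone genes lie furthest to the right, and the endothelial and neuron and glia markers, then sarcomere genes, furthest to the left.

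Energy metabolism and the cell cycle were the next groups. Of 71 listed nuclear genes of oxidative phosphorylation 44 were high, with a median of 1157 per kb, led by the ATP synthase subunit genes Atp5b (13518 ± 700.3 per kb, SD, n = 3) and Atp5g2 (7316 ± 678 per kb). Of 24 listed glycolysis genes 10 were high. Ldha, the muscle-type lactate dehydrogenase subunit, was at 12850 ± 412 per kb, while Ldhb, the heart-type subunit, was at 53.1 ± 7.88 per kb. Of 44 listed proliferation genes 26 were high and none was low, with a median of 1126 per kb. Rrm2, the ribonucleotide reductase subunit of S phase, was at 8585, 8508 and 7938 per kb, and cyclin D1, Ccnd1, at 5028, 4847 and 4919.6 per kb. Both were even across the samples. The lowest member of that list was Cdkn1c, an inhibitor of cyclin-dependent kinases, at 14.1, 24 and 13 per kb. All 42 growth factor receptor genes looked for were listed, but only Axl, a receptor tyrosine kinase, was high (2968 ± 52.4 per kb). Il6st, the shared signalling subunit of interleukin 6 family receptors, was at 925 ± 55.2 per kb and Fgfr1 at 876 ± 51.3 per kb.

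All 9 myoblast markers looked for were listed, at 40.6 to 1145 per kb. Des, the muscle intermediate filament desmin, was at 1092, 1219.9 and 1123 per kb in samples 1, 2 and 3 and was the only one of the 9 called high. Myod1 was at 870.0, 825 and 906 per kb, close to Ncam1, a neural and muscle cell adhesion molecule, at 883, 819.6 and 794 per kb. These 2 genes overlapped in range. Cdh15, the muscle cadherin, was at 163, 179.7 and 186 per kb. Myf5 was at 70.8, 54.1 and 74.6 per kb, and by normalized count Myod1 exceeded it 11, 13.6 and 10.8 times without length division. Pax7 was at 29.6, 35.8 and 56.5 per kb, highest in sample 3, and did not separate from Myf5 in range. Myod1 lay at rank 1631 of the genes with a length, and Myf5 and Pax7 at ranks 8890 and 9717.

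Across the list of myogenic transcription factors, 22 of 34 were listed, with a median of 343 per kb, 1 high and none low. The high member was Tead1, a partner of the Hippo coactivators that binds muscle promoters, at 2607, 2059.9 and 2407 per kb. That call rests on its transcript length, since with its longest transcript Tead1 was at 354 per kb. Srf, which drives actin genes together with Mrtfa, was at 1047, 1003 and 722 per kb, lowest in sample 3. The E protein gene Tcf3, whose products pair with Myod1, was at 801 ± 36 per kb (SD, n = 3), and Mef2d, a cofactor of Myod1, at 737 ± 30.5 per kb. Six5 was the lowest listed member, at 31.8 ± 2.27 per kb.

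Per kb, Id3, Id1 and Id2 stood above Myod1. Id3 was at 3357, 3772 and 3475 per kb, Id1 at 2360.3, 2565 and 2366 per kb, and Id2 at 1237, 1255 and 1388 per kb. The 3 genes kept this order in all samples, and per kb each exceeded Myod1 in all of them. For Id2 this rests on length, since without length division its mean was 1642 normalized counts, against 1613 for Myod1. By the longest transcript or the union of exons, 2 listed inhibitors were high instead of 3. By normalized count Id3 was 1.74, 1.8 and 1.79 times as high as Id1. Id4 was the lowest of the 23 listed inhibitors, at 12.2, 9.07 and 5.29 per kb. The corepressor gene Ski was the next member after the Id genes, at 775 ± 68.1 per kb (SD, n = 3).

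**Figure D3:**
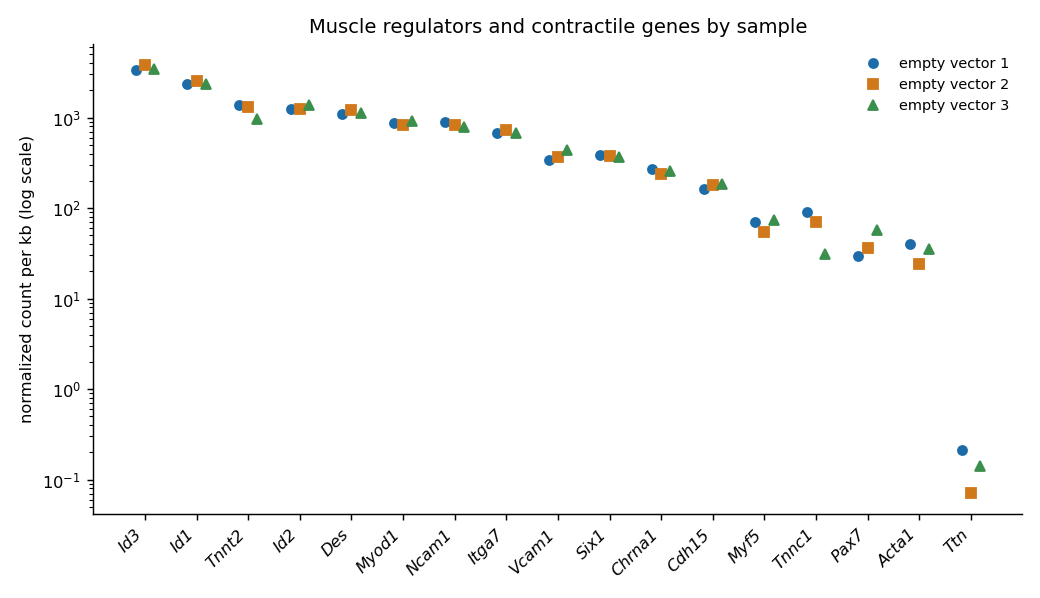
Normalized count per kb (y axis, log scale) of muscle regulators, surface proteins and contractile genes in each of the 3 empty vector samples (blue circle, orange square, green triangle). Id3, Id1 and Id2 lie above Myod1 in every sample, Myf5, Pax7 and Acta1 lie under 100 per kb, and Ttn lies under 1.

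Surface proteins of myoblasts were well represented. Of 35 looked for 28 were listed, with 7 high, 1 low and a median of 381 per kb. Cd9, a tetraspanin involved in cell fusion, was at 5139.8, 4916 and 5295 per kb. Myof, which encodes myoferlin, a membrane repair and fusion protein, was at 1961, 1900.4 and 2099 per kb, and the syndecan gene Sdc3 at 1930.2, 1986 and 1543 per kb. Cdh11 was the lowest listed, at 1.54 ± 0.809 per kb (SD, n = 3), and Dysf, the muscle membrane repair gene dysferlin, was at 11.4 ± 3.57 per kb. Of 13 listed integrins, Itgb1, the beta chain shared by most laminin and fibronectin receptors, was at 3908 ± 142 per kb and Itga3 at 1167 ± 55.5 per kb. In the list of the dystrophin complex and its links, 30 of 32 were listed with a median of 188 per kb, near that of all genes. Beside Vim, Plec and Des, its high members included Nes, the intermediate filament nestin of precursor cells (2445 ± 356 per kb), and Dag1, which encodes dystroglycan (1063 ± 32.1 per kb).

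Most contractile genes were low or not listed. Of 54 sarcomere genes looked for 15 were listed, and the others, Actc1 among them, are not analysed here. The listed members had a median of 20.0 per kb, with 3 high and 6 low, against 10.9% and 10.4% of all genes. Ankrd1, a titin-binding protein that is also a target of growth signals, was at 3977, 4004 and 3333 per kb. Cryab, the small chaperone alpha B crystallin, was at 3195, 3355 and 3172 per kb. Tnnt2, cardiac troponin T, was at 1368, 1321 and 958 per kb, lowest in sample 3. It was at 403 per kb with its longest transcript. No other listed member passed 100 per kb. Tnnc1, slow troponin C, was at 90.4, 69.8 and 31.2 per kb, again lowest in sample 3, and skeletal actin, Acta1, was at 39.9, 24.1 and 35.6 per kb. Mylpf, the fast regulatory light chain, had 10.7, 4.06 and 4.29 normalized counts, too few reads for a difference between samples to be detectable. Ttn, the titin gene, had 19.2, 6.49 and 12.9 normalized counts over a transcript so long that its level, 0.141 ± 0.0699 per kb (SD, n = 3), was the lowest of all genes with a length, and Neb, which encodes nebulin, was next to last at 0.188 ± 0.0832 per kb.

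Muscle excitation, calcium and energy genes had a median of 59.4 per kb, with 17 of 32 listed. Of these 2 were high and 6 low, against 10.9% and 10.4% of all genes, so the high share was near that of all genes. Ckm, muscle creatine kinase, is not analysed here. The high members were Eno3, the muscle enolase, at 6856, 7878 and 6788 per kb, and Atp2a2, the calcium pump of the endoplasmic reticulum, at 2288, 2246 and 1972 per kb. Ryr1, the calcium release channel of skeletal muscle, was at 0.425 ± 0.18 per kb (SD, n = 3), and Stac3, a partner of that channel complex, at 2.93 ± 1.55 per kb.

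Signalling and stress genes spanned a wide range. Of 35 immediate early genes, all listed, 10 were high, led by Junb (4463, 4784 and 3473 per kb) and Ier2 (2422, 2311 and 2134 per kb), and both were lowest in sample 3. The lowest was Nr4a3, an orphan nuclear receptor, at 6.15 ± 0.537 per kb (SD, n = 3). Interferon response genes had a median of 48.1 per kb, with 1 high and 10 low of 48 listed. The high member was B2m, the light chain of class I histocompatibility molecules, at 3948, 4483 and 4308 per kb. Isg15, an interferon-induced ubiquitin-like protein, was at 361 ± 18 per kb. Among chemokines and NF-kB targets, Csf1, the macrophage growth factor, was at 5821 ± 296 per kb, Cx3cl1 at 5353 ± 142 per kb, and Ptgs2, the inducible prostaglandin synthase, at 2750.1, 2563 and 1951 per kb. With its longest transcript Cx3cl1 was at 759 per kb. In the cholesterol list, all 28 genes were listed, with 3 high, near the 10.9% of all genes, none low and a median of 412 per kb.

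The chosen list of long non-coding RNAs lay near the median of all genes, and that of imprinted genes below it. Of 35 non-coding RNAs looked for 21 were listed, with a median of 209 per kb. Over all 343 listed genes of a non-coding or other type the median was only 14.8 per kb. Malat1, a nuclear RNA, was at 8737 ± 1221 per kb (SD, n = 3) by the median of its annotated transcripts but at 758 per kb by the longest, so its rank is not settled. Xist, the RNA that coats the inactive X chromosome, was at 620.1, 566 and 573 per kb. The imprinted gene Gnas, which encodes a stimulatory G protein subunit, was at 6266 ± 244 per kb, while the 22 listed imprinted genes had a median of 48.9 per kb. Among 24 listed histone genes, with a median of 45.7 per kb, the highest were the variant genes H2az1 (8331 ± 355 per kb) and H3f3b (5675 ± 261 per kb).

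Markers of other cell types were mostly low or not listed. Of 14 macrophage and leukocyte markers 4 were listed, summing to 453, 479.6 and 479 normalized counts in samples 1, 2 and 3, most of it Cd14 (246 ± 14.8 per kb, SD, n = 3), and Csf1r was at 2.19 ± 1.01 per kb. Of 11 endothelial markers 3 were listed, summing to 98.3, 71.4 and 84.6. Of 11 epithelial markers 3 were listed, summing to 57.7, 95.8 and 93.2. Adipocyte markers were listed for 4 of 10, with Pparg, the adipocyte nuclear receptor, at 394 ± 22.6 per kb and the lipid-binding Fabp4 at 6.38 per kb. Neuron and glia markers were listed for 6 of 14, of which Stmn2, a tubulin-binding protein, was at 653 ± 17.2 per kb and Tubb3, a neuronal tubulin, at 612 ± 104 per kb. Mesenchymal markers were mixed. Of 15 fibroblast and progenitor markers 8 were listed and 3 were high, S100a4, Pdpn (podoplanin, 9077 ± 487 per kb) and Col3a1. The other listed members were Cd34 at 681, Ly6a at 249, Nt5e at 25.2 and Eng at 16.9 per kb. The last was Pdgfra, the receptor that marks fibroblast progenitors, at 48.3 ± 1.2 per kb. Of 12 bone and cartilage markers 5 were listed, with Spp1 high. Runx2, the master regulator of bone, was at 825 ± 60.2 per kb and Sox9, of cartilage, at 425 ± 19.9 per kb. Dmp1 and Col2a1 were low, at 6.74 and 1.31 per kb. In bulk RNA, few cells with much of a transcript and many cells with little of it cannot be told apart.

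Spread among the 3 controls was small for most genes. For the 9760 genes averaging 100 normalized counts or more, the median coefficient of variation (CV) was 7.29% and the median SD of log2(value + 1) was 0.105. The median CV was 8.83% for means of 100 to 1000 and 4.82% from 10000 upwards, where counting noise alone gives 4.85% and 0.82%. A difference of at least 2-fold between the highest and the lowest sample was found in 36 genes (0.369%), and of at least 1.5-fold in 424 (4.34%). At the 2-fold limit, Vash1 lay just inside at 2.02-fold and Dact2 just outside at 1.99-fold. The most even genes were Ctsb, the lysosomal protease cathepsin B, at 13049, 13038 and 13069.0 normalized counts, and B3gnt2, a glycosyltransferase, at 781, 779 and 779.0. The chaperonin subunit Tcp1, at 9912, 9871 and 9911.0, and the histone deacetylase Hdac2, at 2444, 2434 and 2432.0, were also among the 10 most even.

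The largest spread was that of Prl2c4, at 49.9, 279 and 8.96 normalized counts, a fold range of 28.1. RefSeq lists Prl2c4 as an older name of Prl2c3, another proliferin gene, but the table holds both as separate rows. The Prl2c genes together were steady, at 26506, 27668 and 24104, of which Prl2c2 had 16279.5, 17239 and 15253 and Prl2c3 had 10164, 10137 and 8832. Prl2c3 and Prl2c2 shared 99.5% identity over 842 bases. Of the 18 other most variable genes with a transcript to search, 3 had a listed coding gene with at least 90% identity over 40% of their length, which were Rnaset2a, Stxbp3-ps and Eif3j1. Rnaset2a, an RNase gene, was at 74.7, 235 and 136, while its neighbour in sequence Rnaset2b was at 454, 369 and 384, and their sum was 529, 605 and 519.6. Eif3j1, which encodes a translation initiation factor subunit, was at 395, 187 and 392, against 2566, 2566 and 2241 for Eif3j2.

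Rn18s and Lars2 came next, and they moved together. Lars2, the mitochondrial leucyl-tRNA synthetase gene, had 47159, 14022 and 77733 normalized counts in samples 1, 2 and 3, and Rn18s, as given above, was also lowest in sample 2 and highest in sample 3. The ratio of Rn18s to Lars2 was 5.11, 5.43 and 6.24, while that of Rn18s to Rn45s was 4.8, 2.15 and 10.9. Rn45s itself had 50194, 35322 and 44656. The part of ribosomal RNA left in the libraries in these values was not tested.

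**Figure D4:**
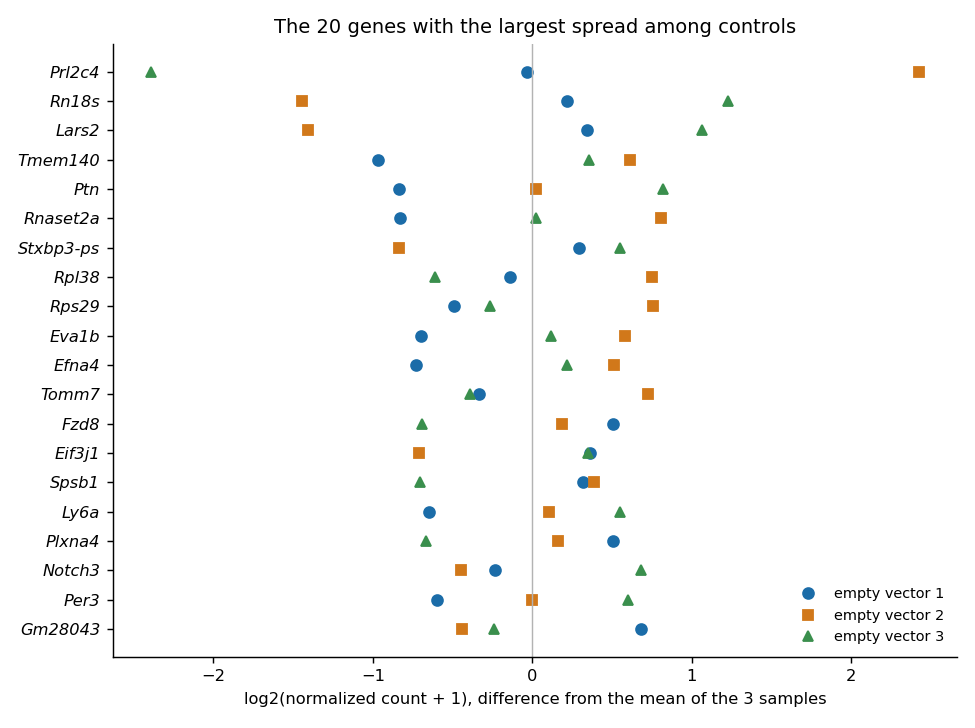
The 20 genes with the largest spread among the 3 empty vector samples, of those with a mean of at least 100 normalized counts, in order from the top. The x axis is log2(normalized count + 1) minus the gene's mean over the samples, and each marker is 1 sample: Prl2c4, Rps29, Rpl38 and Tomm7 lie furthest right in sample 2, Rn18s and Lars2 furthest left in it.

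Among the 20 most variable genes, sample 2 was the highest in 9, sample 3 in 7 and sample 1 in 4. Rps29, a small ribosomal protein gene, had 889.6, 2108 and 1040.3 normalized counts, and Rpl38 had 113, 210.2 and 81.4. Tomm7, a small subunit of the mitochondrial import pore, had 168, 351 and 161. In each of these 3 genes sample 2 lay above samples 1 and 3, which share flow cell A. Samples 1 and 3 differed by at least 2-fold in 9 of the 20. Ptn, the secreted growth factor pleiotrophin, had 146, 266 and 462, a 3.14-fold range, with sample 3 highest. Notch3, a receptor of the Notch pathway, had 194, 167 and 366, and Ly6a, a surface protein of progenitor cells, had 129, 218 and 297. The clock gene Per3 had 63.0, 95.8 and 146. Fzd8, a Wnt receptor, ran the other way with 154, 123 and 66.4, as did the semaphorin receptor gene Plxna4 with 194, 153 and 85.7 and Spsb1, a ubiquitin ligase adaptor, with 177, 186 and 86.8. Tmem140, Eva1b and Efna4 were lowest in sample 1, at 53.0, 78.0 and 63.0, with the other samples between 122 and 191.

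Deviations followed transcript length. In the decile of genes with the shortest transcripts, with a median of 860.0 nucleotides (nt), the median log2 difference from the mean of the samples was -0.068, 0.098 and -0.023 in samples 1, 2 and 3. In the longest decile, with a median of 7240.5 nt, it was 0.044, -0.073 and 0.032. Of the 973 genes in the shortest decile 116 passed 1.5-fold, against 25 of 972 in the longest. Of the 424 genes past 1.5-fold, sample 2 was furthest from the other 2 samples in 152 (35.8%), against 37.0% of all 9760 genes, so it did not stand apart by that count. It was above them in 106 of these genes, with a median length of 977 nt, and below them in 46, with a median length of 3014 nt.

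**Figure D5:**
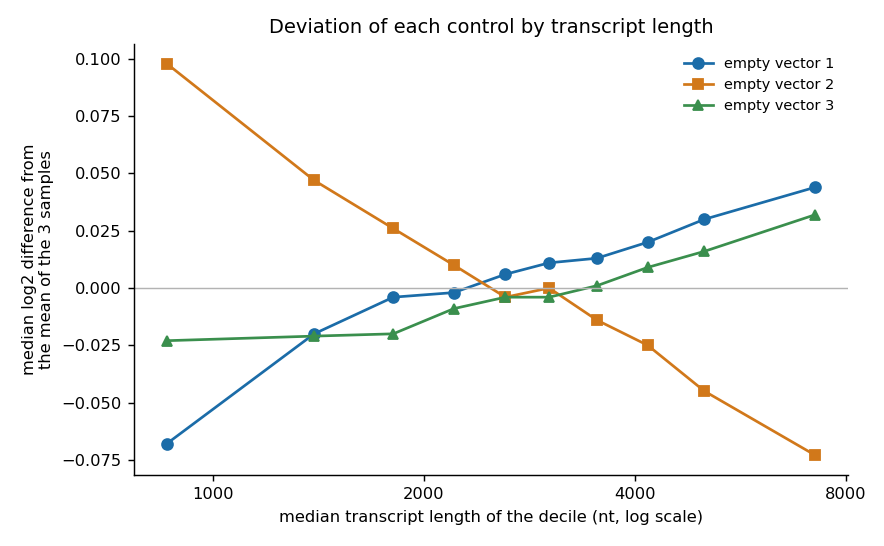
Median log2 difference of each empty vector sample from the mean of the 3 (y axis) in deciles of genes by transcript length (x axis, log scale), for genes with a mean of at least 100 normalized counts. Sample 2 falls with length, from 0.098 to -0.073, while samples 1 and 3 lie lower for short and higher for long transcripts.

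Several gene groups, of short and of longer transcripts, were highest in sample 2. Of 81 ribosomal protein genes with a mean of at least 100, sample 2 was the highest in 73 (90.1%), against 33.6% of all genes. Their median length was 771 nt against 2813 nt for all genes. With the trend on length removed sample 2 was highest in 59 of them (72.8%), against 32.2% of all genes. Of 70 oxidative phosphorylation genes, with a median length of 737 nt, sample 2 was highest in 51 (72.9%) and, with the trend removed, in 33 (47.1%). Glycolysis genes, with a median length of 2311 nt, were highest in sample 2 in 15 of 22 (68.2%), and in 17 (77.3%) with the trend removed. Translation factors, with a median length of 2081 nt, were highest there in 22 of 36 (61.1%), and in 18 with the trend removed. Rpl8 was at 20038, 22797 and 19868 per kb, and Atp5b at 12969, 14306 and 13278 per kb. Flow cell B holds only 1 empty vector sample, so sample, flow cell and the last field of the column names cannot be told apart. Sample 3, in turn, was the highest in few members of some groups, against 33.4% of all genes. It was highest in 2 of 33 chaperones (6.1%), 3 of 36 translation factors (8.3%), 3 of 34 genes of the actin list (8.8%) and 3 of 31 immediate early genes (9.7%). With the trend on length removed these counts were 3, 3, 4 and 3, against 35.2% of all genes. Other groups went the other way. Before removal of the trend, sample 3 was highest in 12 of 21 myogenic transcription factors (57.1%) and 22 of 43 proliferation genes (51.2%). With the trend removed these counts were 12 and 23 (53.5%). Sample 2 was highest in 2 of these myogenic factors (9.5%) before and after removal.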

How the data were processed

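RNA of C2C12 myoblasts was sequenced, and the 3 empty vector samples were described. The deposited values are a signal, reads of a gene scaled by a sample-wide size factor, as judged from the table: 88.68% to 89.14% of values up to 100 reads were whole within 0.02 reads, so no count model was fitted. The submitters' processing notes name Partek, DESeq2 1.34.0, STAR and mm9 as what the authors used. What each was used for is not given in the sources used here. Nor is the strand setting, so reads of overlapping or antisense genes cannot be told apart. Positions in the table did not settle the build, and chromosomes alone are given.

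Levels were divided by the median length of basic transcripts in GENCODE M21 (12303 symbols matched directly, 196 by older names, 116 not). Copies were found with blastn. Work was done in Python 3.11.15 with pandas 2.3.3. The 2-fold rule was run on simulated data and recovered 200 of 200 genes changed 4-fold in sample 2, with 0 of 9560 unchanged genes called. The simulated counts held counting noise only, which the real samples exceed. They therefore give no rate of false calls for these data.

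Named genes are the 10 highest by mean, the 20 highest per kb, the highest 2 to 6 of each list (for muscle lists also the lowest), the 20 most variable and 10 most even, and 12 fixed muscle genes. Others were chosen after their values were seen: Rn45s, collagens, cell type markers, the lowest members of other lists, closest copies and those compared with a named gene. The members and gene lists were chosen with earlier results of these data known. Alternatives were other lengths, scalings, filters and pseudocounts, and leaving out each sample. For 1 gene taken by the naming rule the result is not reported here. Group was taken from the genotype label.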

Additional observations from a re-analysis of the deposited data

How the results depend on the processing

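Of 594 recomputed values, 508 stayed within their limit and 86 did not. The limit was the spread between samples, 1.5 times a count or, for SDs of single variable genes, a share of that SD. Of 169 such SDs 158 stayed within it. No paired analysis was possible because 1 group was described and no groups were compared. Leaving out each sample in turn gave 10 to 18 genes past 2-fold (36 with all), a median CV of 5.45% to 6.48% (7.29%) and kept 7 to 11 of the 20 most variable genes. Without sample 2, which leaves flow cell A, these were 10, 5.45% and 7. The high myogenic factors were 1 to 2 when a sample was left out. A filter at a mean of 50 gave 125 genes past 2-fold and kept 6 of the 20, and no filter gave 1086, a median CV of 8.96% and 1 of the 20. Total scaling, quantile normalization, removal of the length trend and log2(value + 5) gave 39, 34, 30 and 33 genes past 2-fold. Without Rn18s and Rn45s the 100 highest genes held 17.87% of the signal, against 19.25%. With no length division 50 of the 100 highest genes per kb were kept, and the same number of highest genes then held 2 myogenic factors, 6 integrins (2 per kb), 13 oxidative phosphorylation genes (44), 4 growth factor receptors (1) and 47 ribosomal protein genes (72). By the longest transcript the high members were 0 myogenic factors, 2 NF-kB targets (4), 0 non-coding RNAs (2) and 1 cholesterol gene (3). By the union of exons they were 0 myogenic factors, 4 surface genes (7), 3 of the dystrophin list (6), 1 integrin, 20 oxidative phosphorylation genes, 12 proliferation genes (26), 2 NF-kB targets, 0 non-coding RNAs and 1 cholesterol gene. Chosen after seeing the data, adding near-identical pseudogenes gave ribosomal proteins 3.04% of the signal (2.58%), and removing the length trend left sample 2 highest in 33 oxidative phosphorylation genes (51). Depth limits genes under 10 normalized counts, where the median CV was 52.39% and counting noise alone gives 39.33%.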
